A study of Mus musculus with 6 samples.

Results

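Granzymes, perforin, granule proteins, their inhibitors and Fas ligand were examined in Treg cells sorted from tumours. Regulatory T (Treg) cells are CD4 T cells that express the factor Foxp3 and hold other immune cells in check. The 10 genes were chosen by name: Gzma, Gzmb, Gzmk, Prf1, Nkg7, Cst7, Ctsw, Srgn, Serpinb9 and Fasl. Each matched exactly 1 of the 55450 genes in the table. The study holds 6 RNA-seq libraries, 3 labelled Tim-3 deficient Treg and 3 labelled Tim-3 sufficient Treg, all from C57BL/6 mice bearing MC38, a colon carcinoma line that is grown as a graft. Havcr2 encodes Tim-3, a receptor that dampens T cells, and the comparison asks how its loss in Treg cells alters them within a tumour. The labels give the deficient group only as mice lacking Tim-3 in Treg cells and the sufficient group only as mice with Tim-3. The allele, the promoter of any Cre, whether the controls carry one, age, and whether each library came from 1 mouse or a pool are not given in the sources used here. The spread between libraries, against which p-values are computed, may therefore be technical.

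Cytotoxic lymphocytes kill by releasing granules onto a target cell. Perforin opens the target membrane, granzymes enter and cleave proteins that lead to cell death, and serglycin packs both inside the granule. A separate route uses Fas ligand on the killer cell, which engages the death receptor Fas on the target. Treg cells are not classical killers, but activated Treg cells in mouse tumours are known to express granzyme B and can use it against effector cells.

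The column names show the group of each library but no replicate number. The libraries are called deficient C1, deficient D and deficient dated, and sufficient A1, sufficient B1 and sufficient dated, where "dated" marks the 1 library of each group whose name carries a calendar date. The measure is log2(TPM + 1). TPM corrects the abundance of a transcript for its length and is scaled to a fixed total in each library. The number of genes at 1 TPM or more was 11470 to 12681 by library, and read depth is unknown. Havcr2 had 3.54, 4.27 and 2.55 in deficient C1, D and dated, against 5.70, 5.64 and 4.49 in sufficient A1, B1 and dated on the log2(TPM + 1) scale, so each deficient library lay below each sufficient one. Its difference was -1.83 with a standard error (SE) of 0.48 and an adjusted p of 0.211 in limma (0.0148 with a block for the date mark), and transcript from exons outside a deleted part could remain in this value. All 7 Treg markers examined were present in all 6 libraries, with a summed level of 4421 to 5668 TPM in deficient and 4922 to 7186 TPM in sufficient libraries. Macrophage and monocyte markers (9 genes, 6 of them at 1 TPM or more in at least 3 libraries, none at 0 throughout) summed to 9.35 to 1025 TPM in deficient and 12.6 to 655 TPM in sufficient libraries. The 2 highest sums were those of deficient C1 and sufficient B1, 1 library from each group. CD8 T cell markers (2 genes, both at 1 TPM or more in at least 3 libraries) summed to 11.8 to 42.5 TPM in deficient and 11.3 to 28.4 TPM in sufficient libraries. Gamma delta T cell markers (3 genes, 1 of them at 1 TPM or more in at least 3 libraries) were low but did not overlap between the groups, with sums of 6.39 to 8.72 TPM in deficient and 0.24 to 2 TPM in sufficient libraries. Trdc, the delta chain constant gene that defines those cells, had 0.03 to 0.72 TPM in deficient and 0.07 to 1.32 TPM in sufficient libraries. B cell markers (6 genes, 3 of them at 1 TPM or more in at least 3 libraries) summed to 582 to 793 TPM in deficient and 338 to 614 TPM in sufficient libraries, nearly all of it from the immunoglobulin genes Ighm and Igkc, while Ms4a1 was at 0 in all libraries. The part of gamma delta T cell or B cell transcripts in the results that follow was not tested.

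The stretches before the annotated start sites of 4 of the genes are shown. These genes were picked by level: the groups did not overlap for Cst7, Nkg7 and Fasl, but did for Gzmb, the most abundant granzyme. No difference in level was tested against these stretches. Each is 250 bases of RefSeq sequence on GRCm38.p6, printed 5′ to 3′ in the direction of the gene; for Nkg7 the last 65 bases, which the GENCODE annotation places inside the gene, were searched but are not shown. Capitals mark matches on either strand to the letters TGTGGT (RUNX factors), AGGTGT (T-box factors such as T-bet), TGANTCA (AP-1) and TGGAAA (NFAT).
Cst7, chr2:150570165-150570414, plus strand: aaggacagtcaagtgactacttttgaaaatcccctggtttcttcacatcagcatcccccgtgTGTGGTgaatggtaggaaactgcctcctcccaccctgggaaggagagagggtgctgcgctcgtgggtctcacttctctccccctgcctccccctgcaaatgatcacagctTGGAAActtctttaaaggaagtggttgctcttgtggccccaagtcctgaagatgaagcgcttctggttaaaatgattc
Nkg7, chr7:43436888-43437072, plus strand: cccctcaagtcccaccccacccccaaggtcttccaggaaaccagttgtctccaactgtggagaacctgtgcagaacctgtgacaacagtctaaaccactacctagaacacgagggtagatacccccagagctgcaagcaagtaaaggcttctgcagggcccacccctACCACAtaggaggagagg
Fasl, chr1:161788496-161788745, minus strand: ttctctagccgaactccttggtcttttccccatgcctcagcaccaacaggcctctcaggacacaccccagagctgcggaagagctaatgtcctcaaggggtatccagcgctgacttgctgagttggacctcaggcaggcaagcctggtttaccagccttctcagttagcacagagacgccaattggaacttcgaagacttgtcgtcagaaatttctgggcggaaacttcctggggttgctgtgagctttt
Gzmb, chr14:56262335-56262584, minus strand: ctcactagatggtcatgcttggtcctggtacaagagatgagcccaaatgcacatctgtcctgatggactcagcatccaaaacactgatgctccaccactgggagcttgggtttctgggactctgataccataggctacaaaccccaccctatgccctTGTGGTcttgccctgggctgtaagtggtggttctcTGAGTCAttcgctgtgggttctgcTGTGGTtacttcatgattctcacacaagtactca
RefSeq windows were available for 9 of the 10 genes, with 10 windows in all since Srgn has 2. The windows of Gzmk and Serpinb9 and 1 of the 2 Srgn windows lie wholly inside the gene as GENCODE annotates it. Their matches are included in the counts that follow: T-box in Gzmk, NFAT in Serpinb9, and RUNX and NFAT in Srgn. The RUNX letters stood in 6 of these 10 windows and in 14% of all 32851 windows of the same length. The T-box letters stood in 4 of the 10, against 11.8% of all windows. The AP-1 letters stood in 1 of the 10, against 6.75% of all, and the NFAT letters in 4 of the 10, against 18.6% of all. No motif overlapped another in the 4 windows shown. Nkg7 held 1 RUNX match and, in the bases not shown, 1 T-box match, Gzmb held 2 RUNX matches and 1 AP-1 match, and Cst7 held 1 RUNX match and 1 NFAT match. Fasl, whose level differed between the groups much as that of Cst7 did, held none of the 4 in this window. Such matches describe letters and do not show binding.

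Transcripts of the 10 genes were abundant as a sum in these libraries, and the make-up of that sum was uneven. The 10 genes together took 0.567% of all TPM in deficient C1, 0.805% in deficient D and 0.742% in deficient dated, against 1.12% in sufficient A1, 1.22% in sufficient B1 and 1.13% in sufficient dated. The deficient libraries all lay below the sufficient ones in this share. Gzmb, Srgn and Nkg7 alone supplied 92.0% to 93.4% of the members' TPM in deficient and 90.5% to 92.0% in sufficient libraries. The share does not describe each gene. In deficient dated against sufficient dated, Nkg7 was lower (791 and 5151 TPM), Srgn nearly alike (2925 and 2975 TPM) and Gzmb higher (3218 and 2197 TPM). In bulk RNA a lower level cannot be told apart from fewer cells that express the gene.

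**Figure D1:**
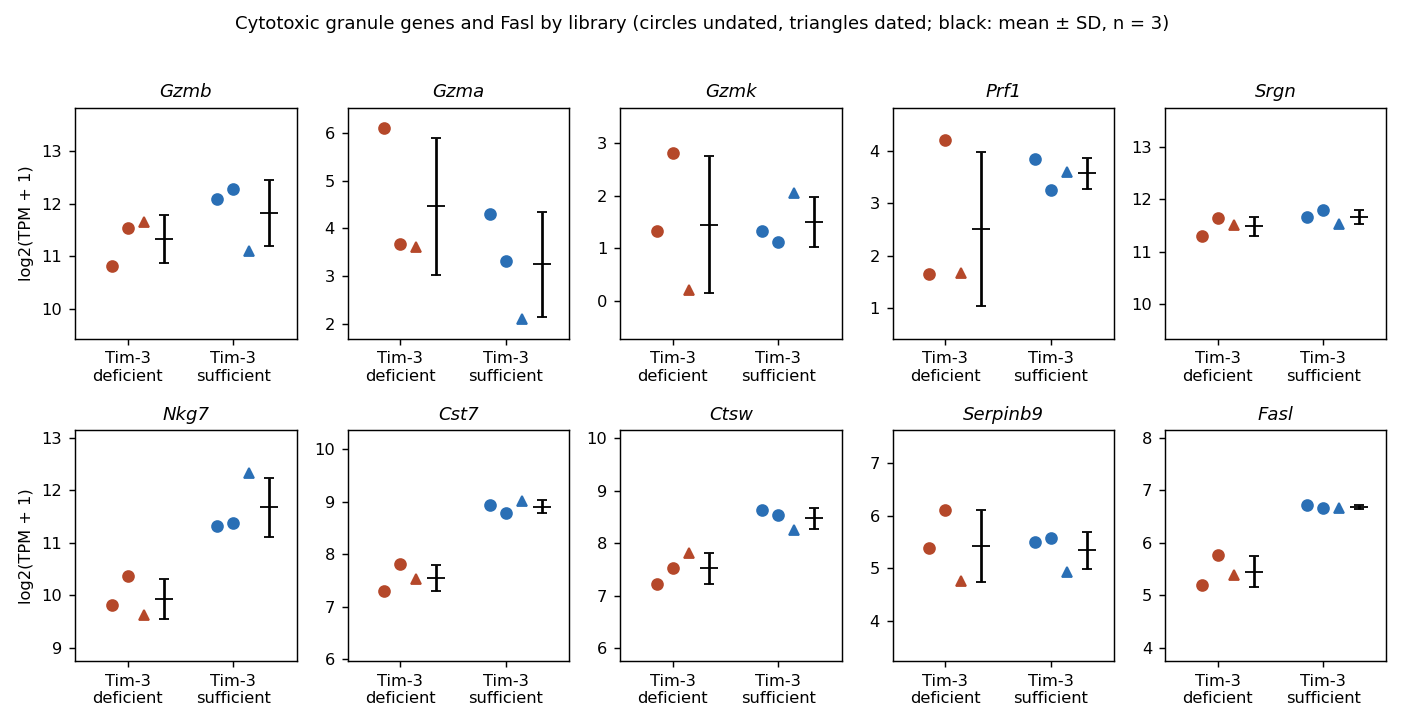
Values of the 10 genes in log2(TPM + 1), 1 point per library (circles undated, triangles dated), with the mean and SD of each group (n = 3) as black bars; the vertical axes span equal or near-equal ranges but start at different levels. Cst7, Fasl, Nkg7 and Ctsw lie lower in all 3 deficient libraries than in any sufficient library, while the groups overlap for the other 6 genes.

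Of the 10 genes, Cst7 was called as lower in deficient Treg cells. Nkg7, Ctsw and Fasl had lower values in every deficient library without passing the threshold. Testing took the 12155 genes that reached 1 TPM in 3 libraries or more, and all 10 cytotoxic genes were among them. Of these 10, 9 reached 1 TPM in all 6 libraries and Gzmk in 5. One gene of the 10, Cst7, was called at an adjusted p under 0.05 (limma, two-sided, Benjamini-Hochberg over all 12155 genes), where 0.206% of all tested genes were called in either direction and 0.074% as lower. Groups did not overlap, with lower values in all deficient libraries, at 4 of the 10 genes and at 6.73% of all tested genes. The median log2 difference of the 10 genes was -0.72, against 0.09 over all tested genes. By date mark it was -0.81 (undated) and -0.85 (dated), and without deficient C1 it was -0.43. Of the 10 genes, 8 had negative values, as had 39.9% of all tested genes.

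Cst7 encodes cystatin F, a cysteine protease inhibitor of cytotoxic granules and lysosomes that restrains cathepsin C, the enzyme that activates granzymes. It lies on chromosome 2 from 150570415 to 150578944 (GRCm38, plus strand). Its level was 157, 223 and 183 TPM in deficient C1, D and dated, against 487, 438 and 515 TPM in sufficient A1, B1 and dated. The groups were well apart, with the highest deficient library at 223 TPM and the lowest sufficient one at 438 TPM. On the log2(TPM + 1) scale the mean was 7.54 ± 0.25 in deficient and 8.91 ± 0.12 in sufficient libraries (SD, n = 3 each). The log2 difference was -1.36 ± 0.16 (SE), with a 95% interval of -1.74 to -0.98 and an adjusted p of 0.0256 in limma. The undated libraries gave -1.30 and the dated pair -1.49. The call was lost when any library but deficient dated was left out: the adjusted p was 0.0665 without deficient C1, 0.0797 without deficient D, 0.146 without sufficient A1, 0.127 without sufficient B1 and 0.0710 without sufficient dated, with differences of -1.49 to -1.24. Centring each library on its median gave -1.50 with an adjusted p of 0.0513.

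Fasl encodes Fas ligand, the death ligand of the tumour necrosis factor family, on chromosome 1 from 161780689 to 161788495 (minus strand). It had 35.6, 53.7 and 41.0 TPM in deficient C1, D and dated, against 105, 100.3 and 100.4 TPM in sufficient A1, B1 and dated. The sufficient libraries were nearly alike, with a log2 mean of 6.68 ± 0.04, whereas the deficient ones spread more, at 5.45 ± 0.29 (SD, n = 3 each). Deficient minus sufficient, the log2 difference was -1.23 ± 0.18 (SE), with an interval of -1.66 to -0.80 and an adjusted p of 0.0562 in limma, short of the threshold. The undated libraries gave -1.21 and the dated pair -1.27. The adjusted p was under 0.05 in limma with a block for the date mark (0.0234), without deficient dated (0.0493), without the dated pair (0.0489) and after quantile normalization (0.0419). Fasl passed in these 4 of 16 other settings only. With 1 library left out its adjusted p reached 0.2675 in limma.

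Nkg7 encodes a granule membrane protein that is needed for efficient release of cytotoxic granules. The gene spans 43437073 to 43438249 on chromosome 7 (plus strand). Its level was 903, 1316 and 791 TPM in deficient C1, D and dated, against 2549, 2658 and 5151 TPM in sufficient A1, B1 and dated. Every deficient library lay below every sufficient one, and sufficient dated stood far above the rest of its group. This gave a log2 difference of -1.74 ± 0.30 (SE), with an interval of -2.43 to -1.04 and an adjusted p of 0.0844 in limma. The undated libraries gave -1.26 and the dated pair -2.70. A block for the date mark brought the adjusted p in limma to 0.0347, and leaving out the dated pair to 0.0267. Those were the only 2 of 16 other settings in which Nkg7 passed. With 1 library left out its adjusted p was 0.0691 to 0.237 in limma.

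Ctsw encodes cathepsin W, a papain-family protease found mainly in CD8 T cells and natural killer (NK) cells, on chromosome 19 from 5465043 to 5468507 (minus strand). It had 149, 184 and 223 TPM in deficient C1, D and dated, against 394, 371 and 302 TPM in sufficient A1, B1 and dated. Here the dated libraries lay nearest to each other, and the groups still did not overlap. Over all libraries the log2 difference was -0.95 ± 0.19 (SE), with an interval of -1.38 to -0.51 and an adjusted p of 0.113 in limma. The undated libraries gave -1.20 and the dated pair -0.43. The adjusted p was under 0.05 in limma with a block for the date mark (0.0476), without deficient dated (0.0477) and without the dated pair (0.0182). In the rest of the 16 other settings Ctsw did not pass. With 1 library left out its adjusted p reached 0.407 in limma. The 9 bases at its end overlap Fibp on the opposite strand, whose log2 difference was -0.18 (adjusted p = 0.687 in limma).

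With a block for the date mark, 4 of the 10 genes passed in limma, namely Nkg7, Cst7, Ctsw and Fasl, where 1.97% of all tested genes did. Without the dated pair the same 4 passed, as did 1.77% of all tested genes. Without deficient C1 and sufficient B1, the libraries with the highest macrophage transcripts, limma called 0 of the 10 genes and 0 of 12155 genes (0%). At an unadjusted p under 0.05, those 4 of the 10 and 748 of all genes then passed. In the 4 remaining libraries the log2 differences were -1.31 for Cst7, -1.11 for Fasl, -1.83 for Nkg7 and -0.76 for Ctsw, and the adjusted p ranged from 0.243 to 0.635.

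The gap between the undated and the dated difference was narrow for Cst7 and Fasl, wider for Ctsw, and over 1 on the log2 scale for Gzmk, Gzmb, Nkg7 and Prf1. The test of whether the contrast differs by date mark, as a term for group by date mark in limma, called 0 of the 10 genes and 0.0165% of all tested genes. At an unadjusted p under 0.05 it reached 4 of the 10 (Gzmb, Gzmk, Nkg7 and Ctsw) and 6.1% of all. For Cst7 the term was -0.19 ± 0.33 (SE, adjusted p = 0.977 in limma) and for Fasl -0.06 ± 0.38 (0.991).

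**Figure D2:**
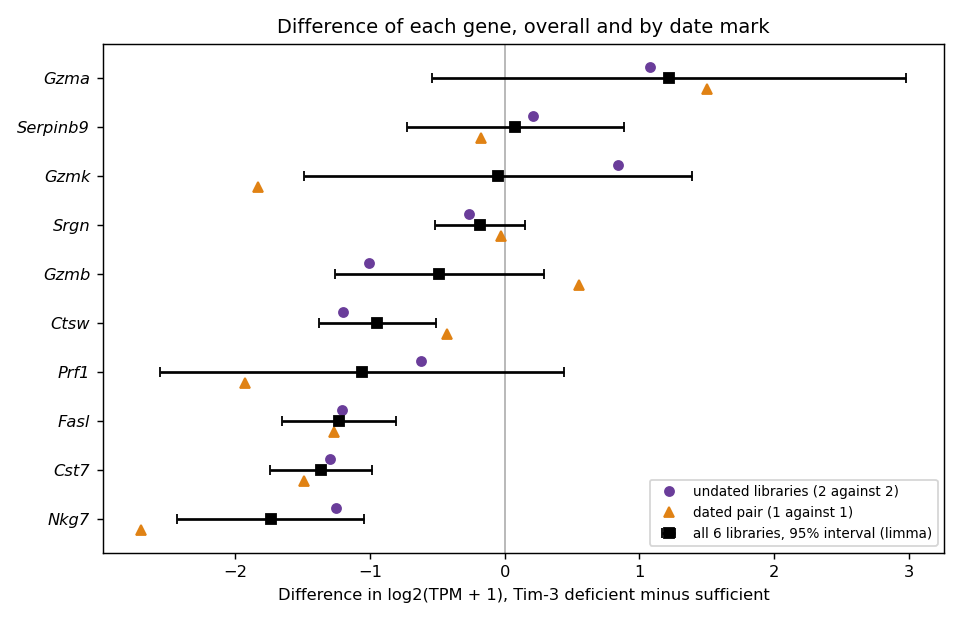
Difference in log2(TPM + 1), Tim-3 deficient minus sufficient, for each gene: black squares with the 95% interval of limma over all 6 libraries, purple circles for the undated libraries and orange triangles for the dated pair. The intervals of Nkg7, Cst7, Fasl and Ctsw lie below 0, and Gzmb, Gzmk and Serpinb9 have differences of opposite sign in the undated and the dated libraries. The intervals are not adjusted for the number of genes tested, and only Cst7 was called.

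The granzymes and perforin did not pass the threshold, and they did not share a direction. Gzmb, the serine protease that cleaves caspases and Bid in target cells, lies on chromosome 14 from 56258838 to 56262260 (minus strand). It had 1802, 2976 and 3218 TPM in deficient C1, D and dated, against 4361, 4952 and 2197 TPM in sufficient A1, B1 and dated. The undated deficient libraries lay below the undated sufficient ones, but in the dated pair the order was the opposite. The log2 difference was -0.49 ± 0.34 (SE), with an interval of -1.26 to 0.29 and an adjusted p of 0.599 in limma. The undated libraries gave -1.004 and the dated pair 0.55. This difference was -0.23 without deficient C1 and -0.85 without sufficient dated.

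Gzma, a tryptase-like granzyme, is on chromosome 13 from 113093825 to 113100981 (minus strand). It had 68.3, 11.7 and 11.2 TPM in deficient C1, D and dated, against 18.8, 8.92 and 3.30 TPM in sufficient A1, B1 and dated. One library, deficient C1, stood far above the other 5. For Gzma the log2 difference was 1.22 ± 0.76 (SE), with an interval of -0.54 to 2.98 and an adjusted p of 0.563 in limma, and without deficient C1 it was 0.39. NK cell markers (6 genes, 3 of them at 1 TPM or more in at least 3 libraries, Klra8 at 0 in all) summed to 4.90 to 226 TPM in deficient and 3.69 to 72.0 TPM in sufficient libraries, with deficient C1 highest. Of that sum 216 TPM came from Tyrobp, an adaptor that myeloid cells also express. Ncr1, the receptor that defines NK cells, had 3.08 TPM in deficient C1 and 5.80 TPM in sufficient A1. The part of NK or myeloid transcripts in the Gzma value was not tested.

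Prf1 encodes perforin, on chromosome 10 from 61297833 to 61304680 (plus strand). It had 2.16, 17.4 and 2.18 TPM in deficient C1, D and dated, against 13.4, 8.60 and 11.1 TPM in sufficient A1, B1 and dated. Deficient C1 and deficient dated were low, whereas deficient D held the highest value of all 6 libraries. For Prf1 the log2 difference was -1.06 ± 0.65 (SE), with an interval of -2.56 to 0.44 and an adjusted p of 0.556 in limma, with -1.91 when deficient D was left out and -0.63 when deficient C1 was. Gzmk, a granzyme of memory-like CD8 T cells, was near the limit of the table, with 1.50, 6.06 and 0.16 TPM in deficient C1, D and dated, against 1.51, 1.19 and 3.14 TPM in sufficient A1, B1 and dated. Its log2 difference was -0.05 ± 0.62 (SE, adjusted p = 0.985 in limma), and the undated libraries alone gave 0.84. Gzmk (chromosome 13, 113171608 to 113225908, minus strand) holds the gene Esm1 on the opposite strand within it, and no label says that strand was kept. Esm1 had 0.13, 1.43 and 0.27 TPM in deficient C1, D and dated, against 0.39, 0.71 and 0 TPM in sufficient A1, B1 and dated. The part of Esm1 reads in the Gzmk value was not tested. Deficient D, highest for both Prf1 and Gzmk, also had the highest CD8 T cell markers, with 11.6 TPM of Cd8a and 31.0 TPM of Cd8b1. The other deficient libraries had at most 2.05 and 13.4 TPM of these, and the sufficient ones at most 6.16 and 22.2 TPM. The part of CD8 T cell transcripts in those values was not tested.

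The genes for serglycin and the granzyme B inhibitor did not pass the threshold, and the interval for the inhibitor gene was wide. Srgn, the proteoglycan core that holds granzymes and perforin in the granule, lies on chromosome 10 from 62493833 to 62527451 (minus strand). It had 2511, 3198 and 2925 TPM in deficient C1, D and dated, against 3253, 3567 and 2975 TPM in sufficient A1, B1 and dated. On the log2 scale its spread was the smallest of the 10 genes within the deficient group, and the groups overlapped. The log2 difference was -0.19 ± 0.15 (SE), with an interval of -0.52 to 0.15 and an adjusted p of 0.647 in limma. Serpinb9, the serpin that inactivates granzyme B and so protects the cell that makes it, is on chromosome 13 from 33003250 to 33017957 (plus strand). It had 40.8, 68.3 and 26.0 TPM in deficient C1, D and dated, against 44.3, 47.0 and 29.5 TPM in sufficient A1, B1 and dated. Both dated libraries were the lowest of their groups. The log2 difference was 0.08 ± 0.35 (SE), with an interval of -0.73 to 0.89 and an adjusted p of 0.947 in limma, and it was slightly negative after quantile normalization (-0.03) and median centring (-0.06).

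The order of levels within a group shows the same uneven make-up. In deficient libraries Srgn had a mean of 2878 TPM, Gzmb 2665 TPM and Nkg7 1003 TPM. Srgn and Gzmb overlapped, while Nkg7 lay below both in every library. In sufficient libraries Gzmb had a mean of 3837 TPM, Nkg7 3453 TPM and Srgn 3265 TPM, and neighbours in this order overlapped. Cst7 and Ctsw followed in both groups. They overlapped in deficient libraries (means of 188 and 185 TPM), whereas Cst7 lay above Ctsw in every sufficient one (480 and 356 TPM). Fasl and Serpinb9 overlapped in deficient libraries (43.5 and 45.0 TPM), but in sufficient libraries Fasl was higher in each (102 and 40.3 TPM). Prf1, with means of 7.26 TPM in deficient and 11.0 TPM in sufficient libraries, was far below the granzyme B level in every library: the ratio of Gzmb to Prf1 in TPM was 834, 171 and 1476 in deficient C1, D and dated, against 326, 576 and 197 in sufficient A1, B1 and dated. These ratios overlapped between the groups.

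Cst7 and Fasl had nearly the same profile across the 6 libraries. Likeness was measured as the root mean square difference, over the 6 libraries, between log2(TPM + 1) values centred on each gene's own mean, against 10019 other tested genes with an established name. For Cst7 the closest gene was Fasl, at 0.098, followed by Ephx1, an epoxide hydrolase, at 0.11 and Ubash3b, a phosphatase that restrains T cell receptor signalling, at 0.12. For Fasl the closest gene was Cst7, followed by Ubash3b at 0.11 and Ephx1 at 0.12. From Cst7, Ctsw ranked 47 and Nkg7 101 of 10019, at 0.31 and 0.37. For Gzmb the closest genes were C1qtnf12 at 0.16, the adaptor Nck2 at 0.16 and Lsmem1 at 0.17. Among the other cytotoxic genes Ctsw was closest to Gzmb, at rank 415, and Gzma farthest, at rank 9859. These distances describe 6 libraries and include the difference between the groups.

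**Figure D3:**
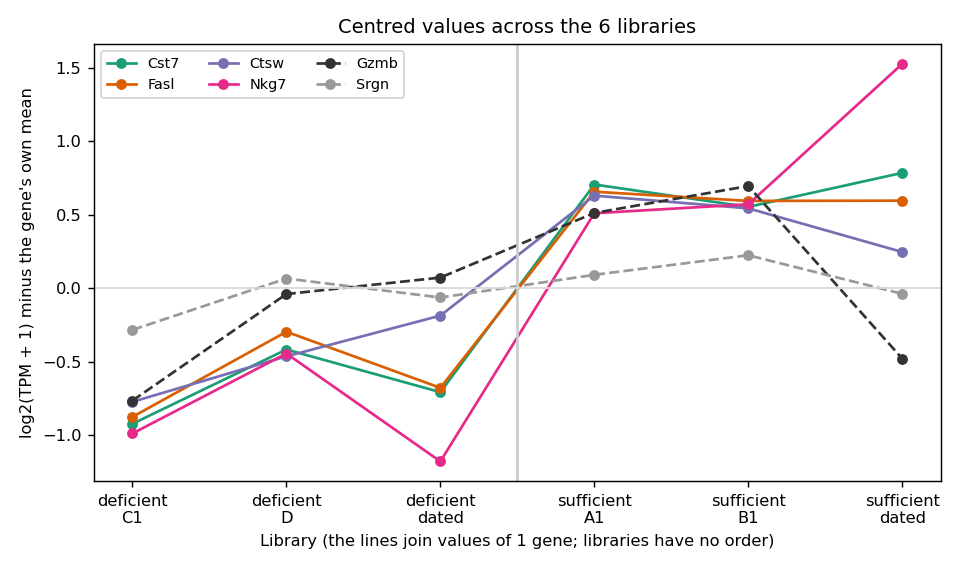
Log2(TPM + 1) of 6 of the genes minus each gene's own mean, across the 3 deficient and 3 sufficient libraries; lines only join the values of 1 gene. Cst7 and Fasl run together (root mean square difference of 0.098), Nkg7 departs upward in sufficient dated, and Gzmb drops in that library.

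Genes that work with these products did not pass the threshold over all 6 libraries in any of 6 related lists. In these lists 52 genes were tested by limma, and 11 of the 52 had an unadjusted p under 0.05. Of all tested genes 11.7% did. The lists were chosen with earlier results of these data known, so no conclusion is drawn from the 11. Values are given for the genes of smallest p. Among transcription factors of cytotoxic genes (7 of 8 tested, Eomes too low) the median log2 difference was -0.68 and 6 of 7 were negative. Nfil3, a basic leucine zipper factor, had -1.32 ± 0.36 (SE, adjusted p = 0.216 in limma), Runx3, a factor that drives cytotoxic genes in CD8 T cells, -0.68 ± 0.22 (0.273), and Tbx21, which encodes T-bet, -0.69 ± 0.24 (0.318). Nfil3 differed by -1.89 among undated libraries but by -0.18 in the dated pair, and it passed in limma without deficient dated (adjusted p = 0.0143) and without the dated pair (0.00642).

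In the death receptor pathway (11 of 11 tested) the median was 0.06, with 5 negative and 6 positive values. Cflar, the caspase 8 inhibitor c-FLIP, had -0.63 (adjusted p = 0.233 in limma) and Adam10, a metalloprotease that sheds Fas ligand, -0.54 (0.390). Among granule proteases, cystatins and sorting receptors (12 of 12 tested) the median was -0.17. Igf2r and M6pr, the receptors for mannose 6-phosphate that can carry granzymes to granules, had -0.95 (adjusted p = 0.227 in limma) and -0.52 (0.428), and the cathepsin gene Ctsb had -0.53 (0.450).

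Granule traffic and exocytosis genes (15 of the 16 listed were found by symbol and tested) had a median of -0.01, with 8 negative and 7 positive values. Sytl3, a Rab27-binding synaptotagmin-like protein, had -1.20 (adjusted p = 0.312 in limma, 0.0261 without the dated pair) and the adaptor subunit Ap3b1 -0.60 (0.353). Cd63, a tetraspanin of lysosome-related organelles, had 2.75 ± 1.30 (SE, adjusted p = 0.458 in limma), with 1.62 without deficient C1 (adjusted p = 0.776) and 4.27 without deficient dated (0.0613). Its values were 8.89, 7.44 and 3.60 in deficient C1, D and dated, against 3.01, 5.74 and 2.95 in sufficient A1, B1 and dated on the log2(TPM + 1) scale. Among other serpins (5 of 11 tested, 5 listed at 0 in all libraries) the median was 0.00. Serpinb1a, an inhibitor of neutrophil-type serine proteases, had 1.28 ± 0.20 (SE, adjusted p = 0.0691 in limma). With a block for the date mark the difference was the same, at an adjusted p of 0.0240 in limma. Without the dated pair it was 1.23, at an adjusted p of 0.0562. Its deficient libraries had 5.20, 5.46 and 5.26 in C1, D and dated, against 4.30, 3.90 and 3.88 in sufficient A1, B1 and dated on the log2(TPM + 1) scale, without overlap. Serpina3f had -0.62 (adjusted p = 0.573 in limma) and Serpinb6a -0.16 (0.831). Of 7 other granzyme genes 4 were at 0 in all libraries and 2 were tested, Gzmf at -0.73 (adjusted p = 0.642) and Gzmc at 0.33 (0.929).

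**Figure D4:**
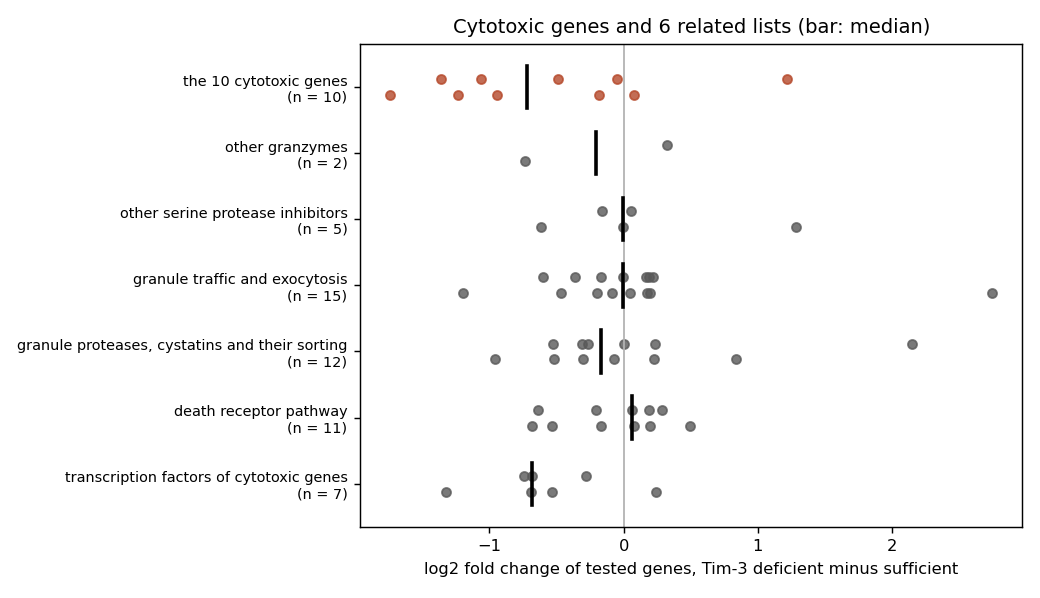
Log2 fold changes (Tim-3 deficient minus sufficient) of the tested genes among the 10 cytotoxic genes and in 6 related lists, 1 point per gene, with the median of each as a bar. The median is -0.72 for the cytotoxic genes, -0.68 for the transcription factors and between -0.20 and 0.06 for the other lists.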

How the data were processed

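Per the submitters' processing notes, STAR, RSEM and limma were used, with the builds GRCm38 and mm10; versions are not given in the sources used here. A Nextera XT kit was used on cells sorted into lysis buffer, and libraries were read as 75 bp pairs, per the labels' protocols. The deposited table holds log2 values. As 2 to the power of the value, less 1, each library summed to between 999999 and 1000001, so they are log2(TPM + 1) and keep no record of depth; no counting interval was computed. TPM is a share of a fixed total, so abundant transcripts shift the rest. All 55450 identifiers matched GENCODE mouse release 21 on GRCm38, and 27 date-like symbols were replaced by the annotated ones.

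Groups were compared with limma 3.58.1 in R 4.3.3 (eBayes with a mean-variance trend, no covariate, pseudocount of 1 TPM as deposited), calling a gene at an adjusted p under 0.05. On the log2(TPM + 1) scale the change of low genes is understated. The test was run on simulated data first. A term for group by date mark was fitted in the same table. Alternatives changed the filter, pseudocount, scaling, variance model, date block and libraries, with the 12155 tested genes kept when libraries were left out. The 10 genes, the related lists and the motifs were chosen with earlier results of these data known. The genes named are the 10, Havcr2, the 3 of smallest p and any called in each list, and the 3 closest in profile to Gzmb, Cst7 and Fasl. One gene that this rule names and 1 marker gene are not reported here. Figures used Python 3.11.15 and matplotlib 3.10.9.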

Additional observations from a re-analysis of the deposited data

Results flagged for a closer look

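Gzmb differed in direction between the undated and the dated libraries. Both undated deficient libraries (10.82 and 11.54) lay below both undated sufficient ones (12.09 and 12.27) on the log2(TPM + 1) scale, whereas deficient dated (11.65) lay above sufficient dated (11.10), a difference of 0.55. The term for group by date mark was 1.55 ± 0.39 (SE) for Gzmb in limma, with an unadjusted p of 0.00452 and an adjusted p of 0.477, so it did not pass. Nkg7 had a term of -1.45 (unadjusted p = 0.00217, adjusted p = 0.369 in limma), Gzmk -2.68 (0.0201 and 0.710) and Ctsw 0.77 (0.0224 and 0.728). Limma called this term for 0 of the 10 genes, with 4 of 10 at an unadjusted p under 0.05, where 6.1% of all tested genes reached that. The dated pair holds 1 library a group, so the date mark and that library cannot be told apart.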

How the results depend on the processing

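Cst7, Nkg7, Ctsw and Fasl had negative differences in all 64 settings tried (16 for each gene). As their groups did not overlap, no change of filter, pseudocount, variance model, date block or libraries could reverse this sign. Only quantile normalization and median centring could have done so. The number of these genes past an adjusted p of 0.05 changed with the setting. Over the whole table limma called 25 genes, against 1 with no filter on low values, 4 without the variance trend, 38 after quantile normalization, 240 with the date mark as a block, 215 without the dated pair and 0 without deficient C1 and sufficient B1, a setting chosen after seeing the data. Leaving out 1 library gave 0 to 121: 0 without deficient D and without sufficient B1 (944 and 978 at an unadjusted p under 0.05 in limma), 2 without sufficient A1, 11 without deficient C1, 24 without sufficient dated and 121 without deficient dated. Of the 10 genes 1 was called, against 0 with no filter, 0 without the trend, 0 after median centring, 2 after quantile normalization, 4 with the block, 4 without the dated pair and 0 without deficient C1 and sufficient B1. Leaving out 1 library gave 0 to 3 (Cst7, Ctsw and Fasl without deficient dated, and 0 without any other library). Where 0 of the 10 were called, 4 or 5 of them still had an unadjusted p under 0.05, against 6.15% to 11.5% of all tested genes. Median centring moved the median of all tested genes by -0.13, so that as deposited 16 genes were higher and 9 lower, but 11 higher and 19 lower after centring, and 16 higher and 22 lower after quantile normalization. Serpinb9 changed sign after quantile normalization (-0.028) and centring (-0.056), and ran from -0.27 to 0.41 as single libraries were left out. Without the dated pair Gzmk was 0.84, Gzmc -0.016 and Serpina3f 0.017. With single libraries left out Gzmk ran from -0.73 to 0.57, Gzmc from -0.83 to 1.22 and Serpinb6a from -0.40 to 0.0079. The count of genes whose contrast differed by date mark was 0 of the 10 in each of the 8 settings fitted. No paired analysis was possible because the columns carry no replicate numbers. Depth is unknown, so what low genes such as Gzmk could show is not known either.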

Other observations

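Levels of a pair of relatives of these genes varied widely between libraries of the same group; both were chosen after their values were seen. Gzmc, a granzyme of the Gzmb cluster, had 3.09, 7.20 and 4.36 in deficient C1, D and dated, against 6.25, 4.07 and 3.35 in sufficient A1, B1 and dated on the log2(TPM + 1) scale. Serpinb9b, a close relative of Serpinb9, had 0.24, 3.40 and 0 in deficient C1, D and dated, against 0.94, 2.77 and 0.03 in sufficient A1, B1 and dated, and was too low to be tested. Deficient D held the highest value of both, as it did of Prf1, Gzmk and Serpinb9. Reads can be divided between close paralogs, so these values are uncertain.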
